A study of Mus musculus with 5 samples.

Results

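The DNA replication and S phase genes measured here are 49 genes. Their products license origins, run the replication fork, supply deoxynucleotides, switch cells into S phase or keep up DNA methylation. Each gene was represented by the probe set with the highest mean log2 signal over the 5 arrays among those annotated to that single gene. This gave 49 genes of the 18193 on the array with such a probe set. All 49 were found, with 110 probe sets between them, and 12 of the genes had 1 probe set. Ptf1a null buds (3 arrays) were compared with Ptf1a heterozygote buds (2 arrays), all dorsal pancreatic buds taken at E10.5 from C57BL/6J matings of heterozygotes. For each array 3 buds, stripped of mesenchyme mechanically, were pooled, and their RNA went through 2 amplification steps primed from the poly(A) tail. Both groups carry at least 1 mutant Ptf1a allele and there was no wild type group, so the comparison is between loss of the remaining allele and its presence. The labels do not state which part of Ptf1a the allele removes, nor from which litters the pools came, and a p-value here reflects only how far such pools differ, which may be technical.

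A cell copies its genome once per cycle. The origin recognition complex, Cdc6 and Cdt1 load the MCM2-7 helicase onto DNA before S phase, which is called licensing, and geminin (Gmnn) blocks reloading. Cdc45 and the GINS complex then turn the loaded helicase into a moving fork, where primase and DNA polymerases copy the strands with the sliding clamp Pcna and its loader RFC. E2F transcription factors switch many of these genes on at the entry to S phase, and the early pancreatic bud at this stage is a growing epithelium of multipotent progenitors.

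Since E2F factors act on many of these promoters, stretches that hold E2F words are shown first. RefSeq promoter windows of the GRCm38.p6 assembly, which run from 250 bases before to 50 bases after an annotated start, were at hand for 41 of the 49 genes. Each was searched on both strands for the E2F words TTTCCCGC, TTTCGCGC, TTTGCCGC and TTTGGCGC, which can overlap one another. A word was present for 18 of 41 members (43.9%), against 2.61% of all 27025 genes with a window and 5.04% of the 8464 array genes above background on all arrays. Among the other replication genes described further on it was present for 12 of 56 (21.4%). The median GC content was 61.3% for members and 62.7% for those 8464 genes. By role, a word was found for 8 of 13 licensing genes, 6 of 19 fork genes, 0 of 4 nucleotide supply genes and 4 of 5 genes of S phase entry and DNA methylation upkeep. The CCAAT box, searched as CCAAT on both strands, was present for 65.9% of members and 41.1% of all genes. It was present for 43.5% of those 8464 genes and 41.1% of the other replication genes. A match is a run of letters, not a site shown to be bound. Only these exact words within the windows were searched, so the absence of a word does not show that a promoter lacks an E2F site. The 5 members shown are those with an E2F word that lies wholly before both the start of the window and the outermost end of the gene in RefSeq's gene table of the same assembly, which includes predicted transcripts and reaches further out than some window starts. Other members, such as Cdc6 and Cdc25a, have a word before the window's start that lies in or reaches into that gene extent. Each stretch ends where the window's start or the gene extent comes first, 5′ to 3′ on the strand of the gene, with the words in capitals.
Orc3: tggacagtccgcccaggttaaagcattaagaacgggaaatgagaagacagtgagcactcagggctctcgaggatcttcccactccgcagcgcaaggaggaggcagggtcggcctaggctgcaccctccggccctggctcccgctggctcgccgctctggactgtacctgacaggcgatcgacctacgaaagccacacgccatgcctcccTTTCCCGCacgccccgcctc
Mcm5: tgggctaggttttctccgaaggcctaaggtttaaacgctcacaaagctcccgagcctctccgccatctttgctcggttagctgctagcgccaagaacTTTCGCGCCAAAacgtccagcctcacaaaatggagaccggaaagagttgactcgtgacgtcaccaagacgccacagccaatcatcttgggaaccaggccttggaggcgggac
Mcm6: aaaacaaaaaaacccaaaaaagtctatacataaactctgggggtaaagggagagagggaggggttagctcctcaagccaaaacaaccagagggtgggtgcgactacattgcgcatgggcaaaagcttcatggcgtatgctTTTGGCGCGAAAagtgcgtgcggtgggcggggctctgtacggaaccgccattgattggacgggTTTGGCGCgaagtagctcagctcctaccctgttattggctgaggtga
Gins3: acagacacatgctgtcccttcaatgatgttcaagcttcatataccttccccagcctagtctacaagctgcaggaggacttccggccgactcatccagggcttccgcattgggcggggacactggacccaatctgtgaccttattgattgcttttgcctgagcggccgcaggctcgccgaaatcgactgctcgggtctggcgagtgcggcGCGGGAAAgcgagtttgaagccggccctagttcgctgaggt
Rfc3: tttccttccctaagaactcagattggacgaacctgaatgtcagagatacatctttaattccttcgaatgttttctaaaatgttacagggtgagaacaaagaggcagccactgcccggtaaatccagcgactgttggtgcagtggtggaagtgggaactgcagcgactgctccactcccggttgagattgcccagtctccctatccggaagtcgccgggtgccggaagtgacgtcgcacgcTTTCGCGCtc
The stretches lie at chr4:34614964-34615192, minus strand for Orc3, a subunit of the origin recognition complex, and at chr8:75109259-75109467, plus strand for the helicase subunit Mcm5. They lie at chr1:128359706-128359955, minus strand for Mcm6, at chr8:95633309-95633558, plus strand for the GINS subunit Gins3 and at chr5:151651209-151651458, minus strand for the clamp loader subunit Rfc3. In Mcm5 and Mcm6 the words TTTCGCGC and TTTGGCGC overlap on opposite strands, and Mcm6 has a further copy of TTTGGCGC nearer its start. Among the 18 members with a word the median log2 change between genotypes was -0.0067, and among the 23 without one it was 0.0050.

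The genotype labels and the tissue were checked first. The Ptf1a probe set read 7.10 and 7.33 (log2 signal) on heterozygote arrays and 5.21, 6.07 and 5.00 on null arrays, a log2 change of -1.79 (SE 0.47, limma adjusted p = 0.651 untrended and 0.457 trended). All 11 measured markers of pancreatic epithelium, among them Pdx1 and Cdh1, were above background on every array, where background is the level set by the array's Bacillus subtilis control probe sets. Their summed signal was 12.52 to 13.13 (log2) in heterozygotes and 12.89 to 13.24 in nulls. The brightest markers, which weigh most in that sum, were Krt8, Krt18 and Gcg, with changes of 0.44, 0.67 and 0.33. Counted gene by gene, 4 epithelial markers were higher and 7 lower in nulls (median -0.13). Among the lower ones were Mnx1 (-2.68), Nkx6-1 (-0.97) and Pdx1 (-0.51). Mesenchyme markers were higher in nulls for 15 of 18 genes, with summed signals of 10.79 to 11.20 against 11.11 to 11.42, and 8 of them were above background on all arrays. Erythroid markers were lower in nulls for 10 of 11 genes, at 13.26 to 13.62 against 13.03 to 13.18. Endothelium markers were higher for 4 of 8 and leukocyte markers for 2 of 6, neural crest and glia markers for 4 of 6 and notochord and floor plate markers for 2 of 4. The limma fits called 0 genes of these lists, and Twist1, Hba-a1 and Nog were at or below background on every array. Array medians lay between 13.7 and 17.5 on the deposited linear scale. The excess of 3′ over 5′ signal of Gapdh was 1.69 and 1.52 (log2) in heterozygotes and 1.41 to 1.46 in nulls. Both heterozygotes thus lay above every null. For beta-actin it was 0.62 to 0.71 in heterozygotes and 0.57 to 0.71 in nulls, with overlap.

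All 49 replication genes were above background on all 5 arrays, in heterozygote and null buds alike. Their mean log2 differences between null and heterozygote ran from -0.42 for the flap endonuclease gene Fen1 to 0.63 for the thymidylate synthase gene Tyms, so the largest was 1.55-fold. In nulls 24 genes were higher and 25 lower, with a median of -0.0049, against a median of -0.012 and 49.1% higher over 1 probe set per gene. The untrended limma fit, adjusted over 45037 probe sets, called 0 members and the trended fit, which lets the prior variance follow signal level, also called 0. The background was 0.0% of all probe sets for the untrended fit and 0.0178% for the trended fit. Over 1 probe set per gene the trended fit called 0.033%, and over the genes above background on all arrays 0.0578%. No member reached an unadjusted p under 0.05 in either fit. The background for that was 5.52% (untrended) and 4.93% (trended) of all probe sets, 4.47% of genes in each fit, and 1.42% and 4.41% of genes above background on all arrays. With so few arrays a missed threshold does not show equal levels, so the intervals matter: the 95% interval of the trended fit lay within a 2-fold difference either way for 41 of 49 members, and that of the untrended fit for 9. Of the 10376 genes above background on all arrays, the trended interval lay within a 2-fold difference for 4852 and the untrended for 1048. The median size of the change was 0.097 for members and 0.23 for those 10376 genes. They were not matched to the members for signal level, which the spread follows, so a smaller size in members cannot be read as greater stability. In these bulk pools, fewer cells of a type and less RNA per cell cannot be told apart.

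**Figure D1:**
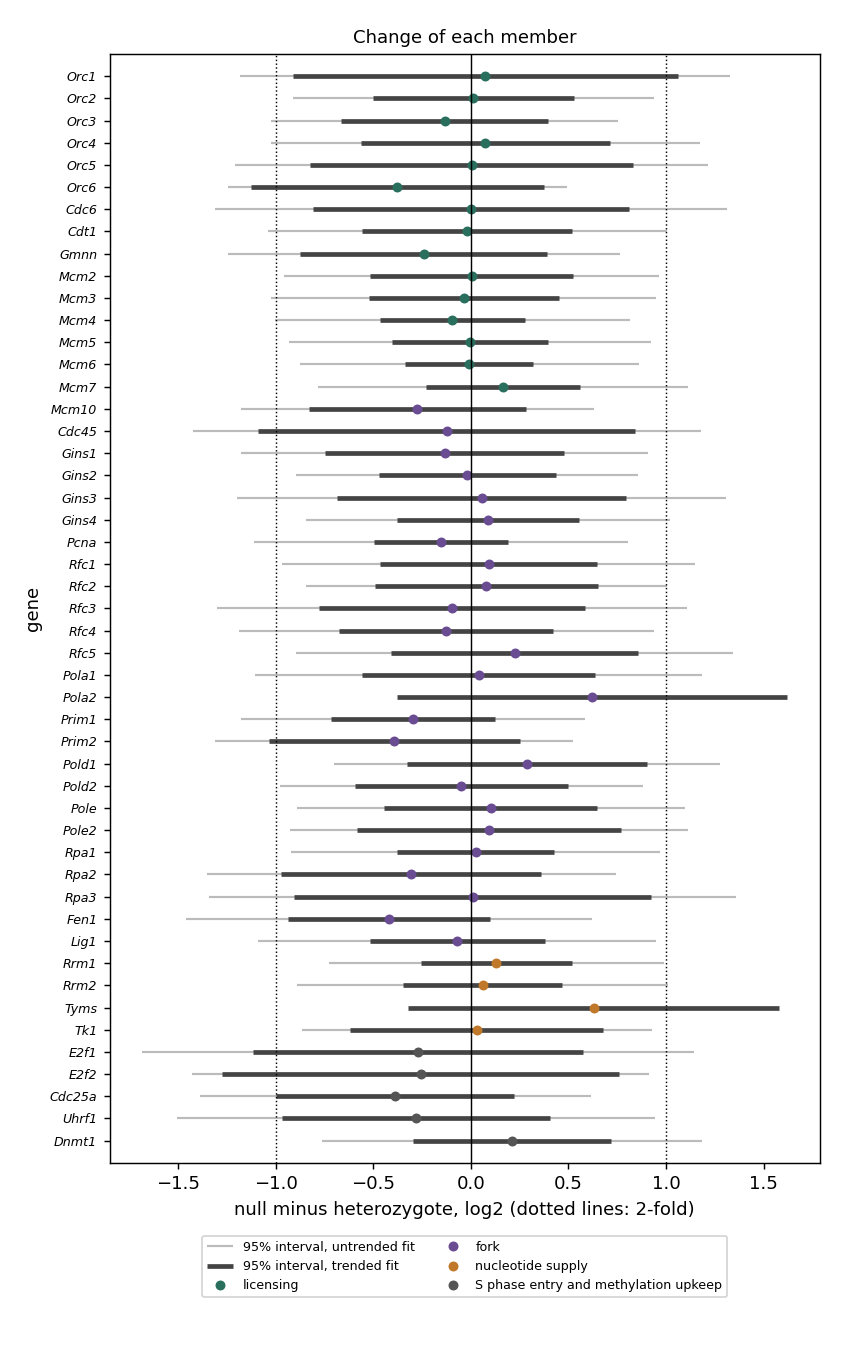
Null minus heterozygote log2 difference of each of the 49 genes (points, coloured by role), with 95% intervals from the untrended (thin) and trended (thick) limma fits. Every interval contains 0, and the points lie between -0.42 and 0.63, inside the dotted lines that mark a 2-fold difference.

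The sign of the whole group depended on scaling. Quantile normalisation gave 24 genes higher and 25 lower, whereas centring each array on its median gave 6 higher and 43 lower with a median of -0.17, and the deposited scale gave 5 and 44 with a median of -0.21. The median over 1 probe set per gene itself moved to -0.095 and -0.14 under these scalings. Leaving out a heterozygote array moved the group in opposite ways, to a median of 0.11 with 29 genes higher without replicate 1, and to -0.20 with 10 genes higher without replicate 2. No member was called in any of these fits.

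**Figure D2:**
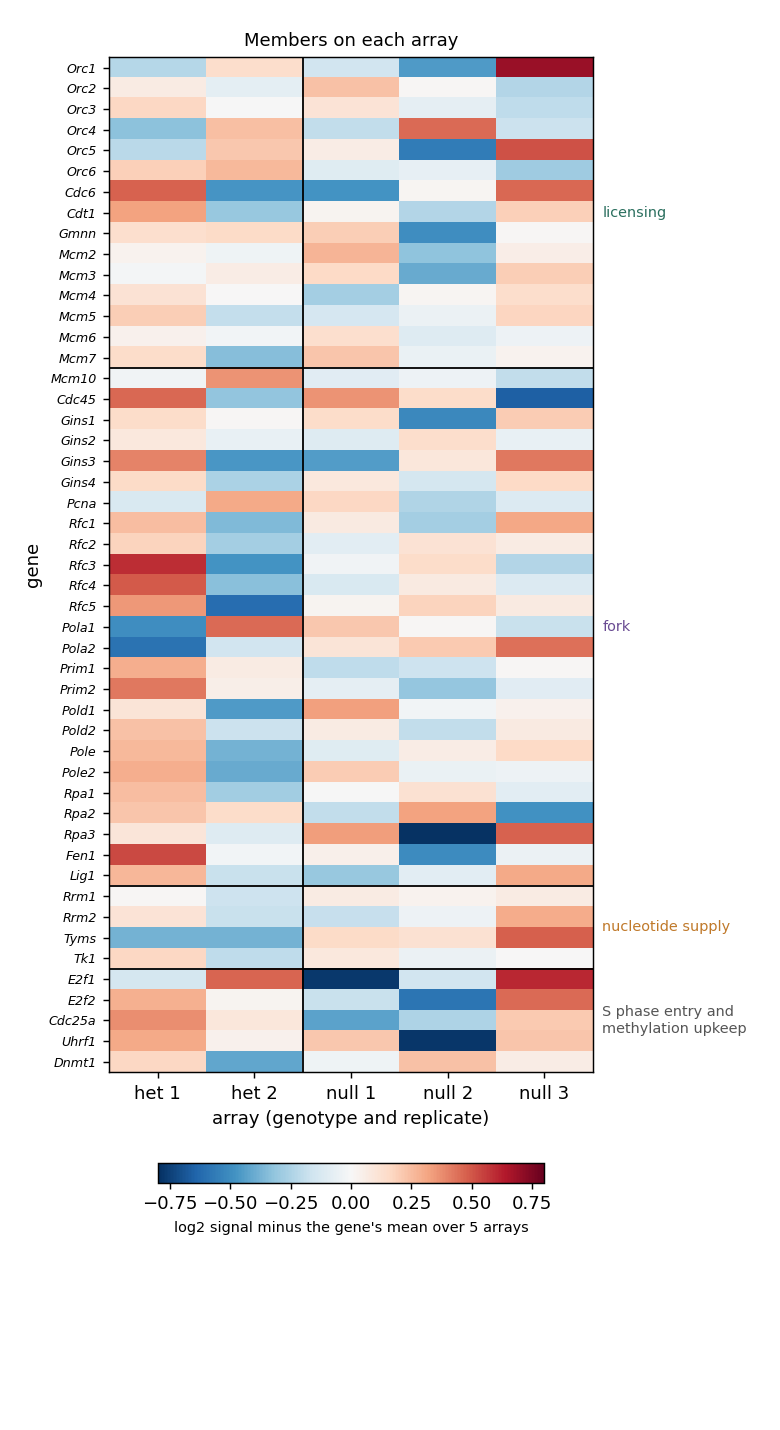
Log2 signal of each member minus that gene's mean over the 5 arrays (colour), with genes in rows by role and arrays in columns. Red and blue are mixed within each genotype, and heterozygote replicate 1 is higher than heterozygote replicate 2 for 37 of 49 genes.

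Licensing genes had the smallest median size of change of the 4 roles, 0.037. Of 15 genes, 7 were higher and 8 lower in nulls, but with median centring 1 was higher and 14 lower, and on the deposited scale 0 and 15. With quantile normalisation their median change was -0.0049 (log2) and their range -0.38 to 0.16. Among the helicase subunits, Mcm6 had log2 signals of 10.52 and 10.47 in heterozygotes and 10.63, 10.39 and 10.45 in nulls. The genotypes overlapped and differed by -0.0084, with a trended 95% interval of -0.34 to 0.32. Mcm2, Mcm3, Mcm4 and Mcm5 differed by -0.096 to 0.0050, and Mcm7 by 0.16. The trended interval lay within a 2-fold difference for all 6 of Mcm2 to Mcm7. Of their 11 other probe sets above background on all arrays, 5 had a positive and 6 a negative change. At the other probe set of Mcm2 every null array was below both heterozygote arrays (log2 change -0.28), while the chosen one differed by 0.0050.

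Within the origin recognition complex, Orc6 had log2 signals of 6.29 and 6.36 in heterozygotes and 6.00, 6.04 and 5.81 in nulls. Every null array was below both heterozygotes, by a gap of 0.26, for a change of -0.38 (SE 0.34, limma adjusted p = 0.992 untrended and 0.977 trended). The other subunits Orc1 to Orc5 differed by -0.13 to 0.074. Orc1, the subunit whose level varies through the cell cycle, spread over 1.14 across the arrays, from 4.97 on null replicate 2 to 6.11 on null replicate 3. Orc4 differed between its probe sets: 0.074 at the chosen one and 0.97 at another, where all nulls were above both heterozygotes (trended limma unadjusted p = 0.0451, adjusted p = 0.976). Orc3 likewise had -0.13 at the chosen probe set and 0.62 without overlap at another.

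Cdc6 had log2 signals of 7.27 and 6.32 in heterozygotes and 6.32, 6.82 and 7.26 in nulls, so each genotype spanned nearly the whole range and the means differed by 0.0016. Cdt1 differed by -0.019. Gmnn, which encodes geminin, had 7.47 and 7.49 in heterozygotes and 7.53, 6.84 and 7.34 in nulls, a change of -0.24 (trended 95% interval -0.87 to 0.39) that came mostly from null replicate 2: without it the change was -0.044.

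Of 25 fork genes, 12 were higher and 13 lower in nulls, with a median of -0.018. This split too held for quantile normalisation with all arrays: it was 3 higher and 22 lower with median centring and on the deposited scale, 17 and 8 without heterozygote replicate 1, and 4 and 21 without heterozygote replicate 2. Within this role, the widest gaps between the genotypes were those of Pola2, Prim2 and Prim1. These belong to the polymerase alpha-primase complex, which makes the RNA-DNA primer of each new strand. Pola2, its accessory subunit, had log2 signals of 4.35 and 4.79 in heterozygotes and 5.04, 5.15 and 5.38 in nulls. All nulls were above both heterozygotes, 1.54-fold on average (log2 change 0.62, SE 0.37, limma adjusted p = 0.991 untrended and 0.977 trended). Without heterozygote replicate 1 the change was 0.40. Its 2 other probe sets, not above background on all arrays, had changes of -0.55 and -1.54 with overlapping groups. The heterozygote mean of Pola2, 4.57, was the lowest among the members, with background at 3.03 to 3.29.

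The primase subunits had the opposite sign. Prim1, the catalytic subunit, had 9.49 and 9.26 in heterozygotes and 8.996, 9.04 and 9.21 in nulls, a change of -0.30 (trended 95% interval -0.72 to 0.12). Prim2, the large subunit, had 7.38 and 7.001 in heterozygotes and 6.88, 6.64 and 6.87 in nulls, a change of -0.39 (trended 95% interval -1.03 to 0.25). For both genes all nulls lay below both heterozygotes. Without heterozygote replicate 1 the changes were -0.18 for Prim1 and -0.20 for Prim2. Their other probe sets above background on all arrays overlapped, at -0.17 for Prim1 and 0.14 for Prim2. The catalytic polymerase subunit Pola1 differed by 0.040.

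Mcm10, which helps activate the helicase, had 7.67 and 8.05 in heterozygotes and 7.61, 7.66 and 7.50 in nulls, a change of -0.27 with a gap of 0.010 between the groups. The change was -0.081 without heterozygote replicate 2 and -0.46 without replicate 1. Other probe sets of Mcm10 differed by -0.52 and, where not above background on all arrays, by 0.93, both with overlapping groups. Fen1, which trims Okazaki fragments, had 9.49 and 8.94 in heterozygotes and 9.01, 8.47 and 8.92 in nulls. Its groups overlapped, and its change of -0.42 (SE 0.40, limma adjusted p = 0.995 untrended and 0.976 trended) shrank to -0.15 without heterozygote replicate 1. Its other probe set differed by -0.10. Pcna, the clamp, had 11.33 and 11.75 in heterozygotes and 11.62, 11.21 and 11.34 in nulls, a change of -0.15 with a trended 95% interval of -0.50 to 0.19.

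Among the remaining fork genes the GINS subunits differed by -0.13 to 0.086 and the RFC subunits by -0.13 to 0.22. The subunits of polymerases delta and epsilon differed by -0.048 to 0.29, highest for Pold1, the catalytic subunit of polymerase delta. The single-strand binding protein genes Rpa1, Rpa2 and Rpa3 differed by 0.025, -0.30 and 0.0087. Lig1, the ligase that seals the lagging strand, differed by -0.070, and the helicase activator gene Cdc45 by -0.12 (0.61 at its other probe set). At the chosen probe sets the genotypes overlapped for each of these genes. At other probe sets above background on all arrays they did not overlap for Rfc4 (log2 change -0.44), Rfc2 (-0.30), Gins1 (-0.67) and Rfc1 (0.48). With those of Mcm2, Orc3 and Orc4, these were the only ones without overlap among the members' 45 other probe sets above background on all arrays. Over all probe sets 20.0% did not overlap.

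All 4 nucleotide supply genes had higher means in nulls, with a median of 0.096, but with median centring this held for 1 of 4 and without heterozygote replicate 2 for 2 of 4. Tyms, which makes thymidylate, had log2 signals of 4.74 and 4.74 in heterozygotes and 5.26, 5.23 and 5.59 in nulls. All nulls were above both heterozygotes by a gap of 0.50, the widest among the members, and the mean was 1.55-fold higher (log2 change 0.63, SE 0.35, limma adjusted p = 0.985 untrended and 0.976 trended). The heterozygote mean of Tyms, 4.74, was the lowest among the members after that of Pola2, and with an offset of 16 its change was 0.43. Of its 3 other probe sets, 1 was at or below background on every array, with a change of -1.18 and every null below both heterozygotes. The others, above background on some arrays, had changes of 1.13 and -1.11. Rrm1, the large subunit of ribonucleotide reductase, had 9.52 and 9.34 in heterozygotes and 9.58, 9.54 and 9.57 in nulls. The groups did not overlap, by 0.015, and the change of 0.13 turned to -0.055 with median centring and was 0.038 without heterozygote replicate 2. Rrm2, the small subunit, differed by 0.060 and the salvage enzyme gene Tk1 by 0.030, both with overlapping groups.

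The genes of S phase entry and of methylation upkeep had 4 of 5 lower means in nulls and a median of -0.27. Cdc25a, a phosphatase that activates cyclin-dependent kinases, had log2 signals of 7.93 and 7.64 in heterozygotes and 7.13, 7.31 and 7.76 in nulls. Its change was -0.39 (SE 0.39, limma adjusted p = 0.998 untrended and 0.977 trended), null replicate 3 overlapped the heterozygotes, and its other probe sets differed by -0.092 and -0.78. Without heterozygote replicate 1 its change was -0.24. Uhrf1, which brings the maintenance methyltransferase to newly copied DNA, had 8.06 and 7.79 in heterozygotes and 7.97, 6.98 and 7.98 in nulls. Only null replicate 2 lay below both heterozygotes, and without it the change of -0.28 became 0.050. The other probe set of Uhrf1 differed by 0.049. Dnmt1, that methyltransferase, differed by 0.21 at the chosen probe set and by -0.23 and 0.41 at its others. The activators E2f1 and E2f2 differed by -0.27 and -0.26, and E2f1 spread from 6.07 to 7.44 within the nulls alone. Without null replicate 2 the median of these 5 genes was -0.017, and without null replicate 3 it was -0.54.

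**Figure D3:**
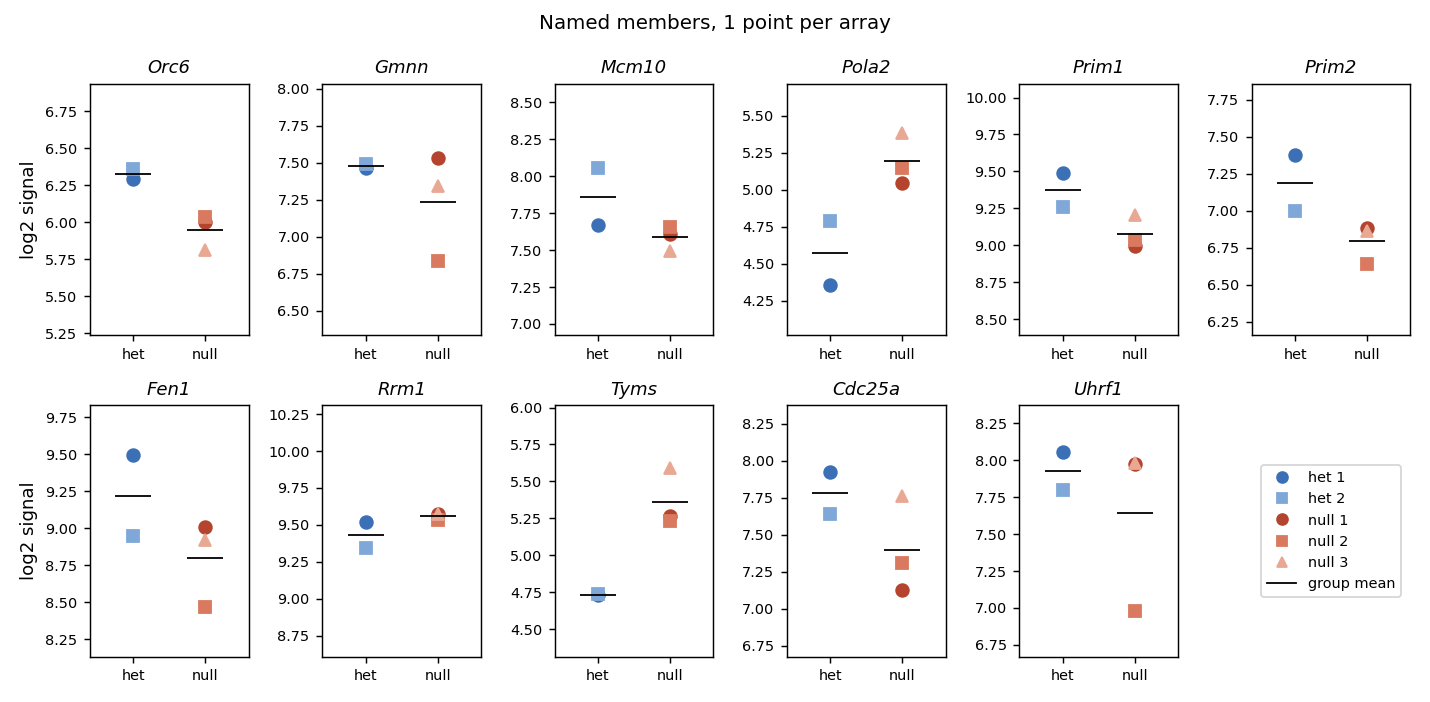
Log2 signal of 11 members (the 7 without overlap, and 4 more that are among the 2 largest changes of their role), with 1 point per array, a line at each group mean and a vertical span of equal length in every panel. The genotypes do not overlap for Orc6, Mcm10, Pola2, Prim1, Prim2, Rrm1 and Tyms, and they overlap for Gmnn, Fen1, Cdc25a and Uhrf1.

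In all, 7 of 49 members (14.3%) had groups that did not overlap, 3 higher in nulls and 4 lower. Over all probe sets 20.0% did not overlap, 9.9% higher and 10.1% lower, and over 1 probe set per gene 19.9% did not, and over genes above background on all arrays 19.6% did not (9.6% higher and 9.98% lower). The share among replication genes was no larger than any of these. An exact permutation test of 2 against 3 arrays cannot give a p below 0.1, and none is given.

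Probe sets of the same gene gave a further check. The 61 other probe sets of the members included 45 above background on all arrays, whose changes ran from -0.78 to 0.97 with a median of -0.016. Of these 45, 29 had the same sign as the chosen probe set. The limma fits called 0 of the 61. The 16 others ranged from -2.37 to 1.33. Of the chosen probe sets, 10 carry an _s_at or _x_at name, which marks designs that can match several transcripts, among them those of Mcm3, Mcm4, Mcm5, Mcm7 and Fen1.

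**Figure D4:**
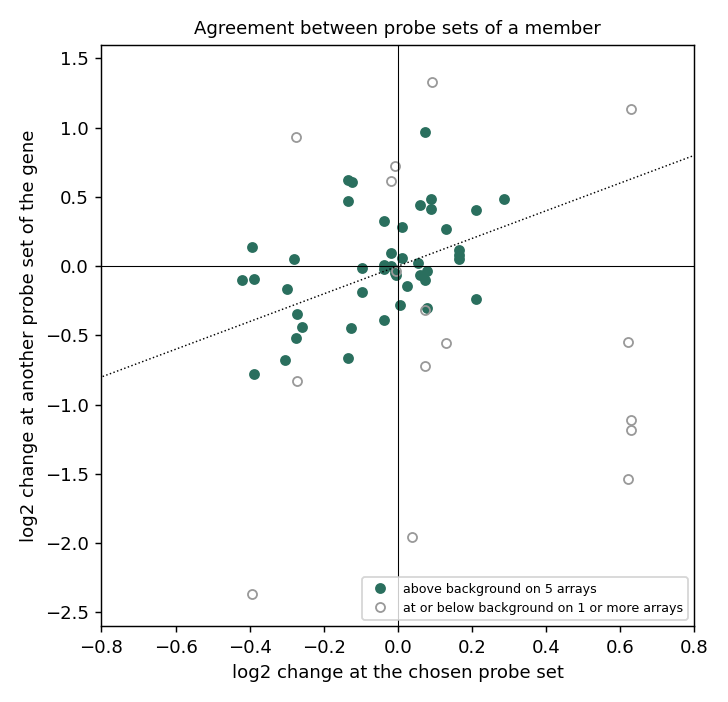
Log2 change (null minus heterozygote) at each of the 61 other probe sets of the members against that at the chosen probe set of the same gene, with the line of equality dotted. Filled points, above background on 5 arrays, lie between -0.78 and 0.97, and the open ones spread from -2.37 to 1.33.

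The heterozygote arrays differed from each other in these genes. On heterozygote replicate 1, 37 of 49 members (75.5%) were higher than on replicate 2, against 49.1% over 1 probe set per gene, with a median difference of 0.26. A count of 37 of 49 was also found with median centring, where the median difference was 0.25. Of the 68 other replication genes described below, 37 (54.4%) were higher on replicate 1, with a median difference of 0.050. This comparison was chosen after the values were seen and has no test, since the members of 1 array are not replicates. By role it was 21 of 25 fork genes (median 0.45) and 9 of 15 licensing genes (median 0.063). At the chosen probe sets, which all these counts use, all 5 RFC subunits were higher on replicate 1, by a median of 0.82. Rfc3 was at 8.30 against 7.23 and Rfc5 at 8.21 against 7.25. At the other probe set of Rfc4 the order was reversed, 8.03 against 8.27. Other probe sets of Rfc1, Rfc2 and Rfc3 were higher on replicate 1, some by little, such as 5.97 against 5.77 for Rfc3 and 6.06 against 6.04 for Rfc2. The 4 subunits of polymerases delta and epsilon were also higher, by a median of 0.60, while 4 of 6 ORC subunits were lower. Cell type markers moved between these arrays too. Relative to each gene's mean over the arrays, the median of epithelial markers was -0.21 on replicate 1 and 0.37 on replicate 2, that of endothelium 0.60 and -0.20, that of mesenchyme -0.0078 and -0.45, and that of erythroid markers 0.12 and 0.73. Their part in the difference was not tested.

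**Figure D5:**
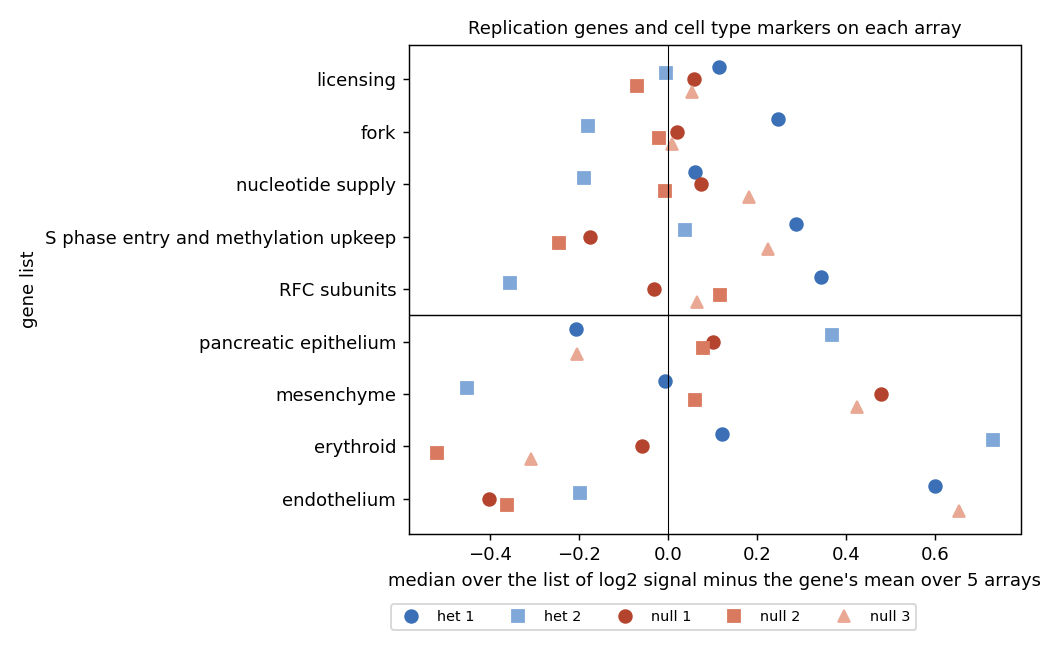
Median, over each gene list, of log2 signal minus the gene's mean over the 5 arrays, with 1 point per array, for the 4 role groups and the RFC subunits (above the line) and for cell type markers (below it). Fork genes run from -0.18 on heterozygote replicate 2 to 0.25 on heterozygote replicate 1, with the 3 nulls between them.

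The same absence of calls held for 68 measured genes of replication outside the 49. Of these, 29 were higher and 39 lower in nulls, the median was -0.038, and the untrended and trended limma fits called 0, with 0 and 3 genes at an unadjusted p under 0.05. Counts by sign and medians of these genes, also by role, were taken only with quantile normalisation and all arrays. Whether they move with scaling, as those of the members did, was not tested. Groups did not overlap for 7 genes higher in nulls and 8 lower, 10.3% and 11.8%, against 9.82% and 10.1% over 1 probe set per gene. Genes of nucleotide pools were lower for 10 of 14, with a median of -0.12. The largest change among them was that of Dut, the dUTPase that keeps uracil out of DNA, with 6.86 and 6.68 in heterozygotes and 6.21, 5.77 and 5.96 in nulls. Every null was below both heterozygotes, 1.73-fold on average (log2 change -0.79, trended 95% interval -1.52 to -0.052, limma adjusted p = 0.947 untrended and 0.976 trended).

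Origin firing genes had a median of 0.051 and fork and chromatin genes one of -0.010. Ticrr, which is needed to fire origins, differed by -0.36 with overlapping groups, and this became 0.11 without heterozygote replicate 1. Atad5, which helps unload Pcna, differed by 0.47 without overlap, and by 0.31 without heterozygote replicate 2. Checkpoint genes had a median of -0.17, and Wee1, a kinase that restrains cyclin-dependent kinases, differed by -0.39 with all nulls below both heterozygotes. In the E2F family and its partners 5 of 11 genes were higher and 6 lower, and the median was -0.013. The retinoblastoma gene Rb1 differed by -0.55 with overlapping groups, by -0.21 without heterozygote replicate 2 and by -0.89 without replicate 1. E2f4, above background on only 3 arrays, differed by -1.11 without overlap (limma adjusted p = 0.943 untrended and 0.976 trended).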

How the data were processed

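The deposited table holds the authors' linear signal intensity of 45101 probe sets on 5 arrays. The submitters' processing notes name GCOS and RMA without version or role, and the sources used here do not say how background was removed. Intensities were log2 transformed with no offset added, then quantile normalised, since array medians spanned 0.354 (log2). Without the 64 controls, 45037 probe sets were tested. Names came from the supplied platform annotation, matched by gene ID to current symbols for 34741 of 34945 single-gene probe sets. Background on each array was the 95th percentile of 27 Bacillus subtilis controls (3.03 to 3.29, log2). Null and heterozygote were compared with limma 3.58.1 in R 4.3.3 (lmFit and eBayes, two-sided, Benjamini-Hochberg over all probe sets, threshold 0.05). The trended fit used trended and robust eBayes. Both were tested on simulated data, in which every planted change was larger than that of any member. Changes as small as those of the members were not tested there. The number of arrays limits the precision. Members and lists were chosen with earlier results of these data known. Genes were described array by array if called by a fit, above background on all arrays with groups that did not overlap, at an unadjusted p under 0.05 in the untrended fit, or among the 2 largest changes of their role above background on all arrays. For complexes, subunits were given by range. Of the other replication genes, any called and the largest change per role above background on all arrays were named. Other genes or probe sets named with values were chosen after their values were seen. Listed genes with no match in the annotation used were not analysed here. Alternatives were another scaling, an offset of 16, values raised to background, a filter on dim probe sets, the replicate number as a block and each array left out.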

Additional observations from a re-analysis of the deposited data

How the results depend on the processing

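The count of 0 called members held in every alternative run, as did that of 0 called other replication genes. Over all probe sets the untrended count of 0 (2484 at an unadjusted p under 0.05) was 8 in the trended fit, and 0 to 11 when arrays were left out of that fit in turn (0 without null replicate 1, 1 without null replicate 2 or 3, 4 without heterozygote replicate 2, 11 without heterozygote replicate 1). The median change of the members was -0.1659 with median centring and -0.2107 without normalisation, and -0.2031 to 0.1068 with an array left out. For licensing it was -0.1659 and -0.2107, and -0.1152 to 0.01738. For fork genes it was -0.2144 without normalisation, and -0.2364 to 0.2649 with an array left out. For nucleotide supply it was -0.06612 with median centring and -0.1109 without normalisation, and -0.02491 to 0.2156 with an array left out. For S phase entry and methylation upkeep it was -0.5396 to -0.0169 with an array left out. Rrm1 turned to -0.05529 and -0.1 under these scalings, Uhrf1 to 0.05049 without null replicate 2 (range with an array left out -0.447 to 0.05049), and Ticrr to 0.1136 without heterozygote replicate 1 (-0.8403 to 0.1136). The cause was not tested. Members that did not overlap numbered 10 to 26 with an array left out (25 and 26 without heterozygote replicates 1 and 2, 11, 11 and 10 without null replicates 1 to 3), since fewer arrays overlap less (31.8% to 53.6% of genes).

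With the replicate number as a block, the members' median was -0.0921, that of licensing -0.1167 and that of S phase entry and methylation upkeep -0.5354. The block with the trended fit, chosen after seeing the data like the trended fits with an array left out, called 79 probe sets and 0 members. Deviations of same-numbered arrays correlated at -0.091 and 0.057. The deviations of the 2 heterozygote arrays mirror each other, so these values cannot show whether same-numbered arrays share a litter or day. The labels do not state it.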

Other observations

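Outside the genes described above, and chosen after its values were seen, Atrip, which encodes the partner of the replication checkpoint kinase Atr, had the largest difference among the replication genes measured. Its log2 signals were 4.89 and 4.83 in heterozygotes and 3.39, 2.84 and -0.64 in nulls, and null replicates 2 and 3 were at or below background. The trended limma fit gave an unadjusted p of 0.0194 and an adjusted p of 0.976, and Atr itself differed by 0.11. Dctpp1, which breaks down surplus deoxynucleotides, had 8.89 and 8.36 in heterozygotes and 7.89, 7.74 and 8.38 in nulls, with trended unadjusted p = 0.0357 and adjusted p = 0.976.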
